A study of Mus musculus with 7 samples.

Results

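The genes of oxidative phosphorylation were described in mouse liver: the subunits of respiratory complexes I to IV, the carrier cytochrome c and the subunits of ATP synthase, complex V. Members were found by symbol, as genes named Nduf, Sdha to Sdhd, Uqcr, Cyc1, Cycs, Cox4 to Cox8 or Atp5, without the muscle forms Cox6a2 and Cox8b. Each gene was represented by its probe set of highest mean signal. This gave 71 of 8251 named genes on the array, with 31 in complex I, 4 in complex II, 8 in complex III, 13 in complex IV, 14 in complex V and Cycs. By symbol, Ndufaf1 and Ndufaf4 also entered, although both encode assembly factors of complex I and not subunits. The symbol rule itself used no measured value, and the choice of probe set used only that mean signal. The members were, however, chosen with earlier results of these data known.

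Total liver RNA was hybridised to Affymetrix U74Av2 arrays, which have 1 colour. The 7 samples were female mice, phenotypically normal with the genotype +/+ or +/df per the source name, with free access to standard food, killed at 24 to 26 months of age. The description field instead names the Ames dwarf genotype df/df, and the group was kept as the titles and source name give it. All arrays form 1 group, numbered here by title as replicates 1, 2, 3, 4, 6, 7 and 8, so spread between arrays could be tested and differences between conditions could not. Labels describe 1 mouse per sample without stating that no animal was used more than once, so p-values and SDs measure the spread between these samples, which may be partly technical. Whole liver was used, in which fewer cells of a type and less RNA per cell cannot be told apart. All 10 hepatocyte markers fixed for the check of the tissue lay in the top 10% of named genes by signal, led by albumin (Alb) at 31853 ± 3079.6 (SD, n = 7), Apoe at 30635 ± 2883 and Serpina1b at 29331 ± 1981. The hepatocyte markers of largest log2 SD were Tat, at 14908 ± 1889, and Apoa1, at 26376 ± 3122.

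Complex I takes electrons from NADH and complex II takes them from succinate, and both pass them to ubiquinone. Complex III hands them to cytochrome c and complex IV to oxygen, while complexes I, III and IV pump protons whose return through complex V drives ATP synthesis. Most subunits are encoded in the nucleus and the rest in mitochondrial DNA, and the liver relies on the chain to burn fatty acids and to fuel the synthesis of glucose and urea.

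The promoters of members were read from RefSeq (GRCm38.p6), as windows of 300 bases from 250 bases before to 50 bases after the start of the gene, for the 58 of 71 members that matched. Shown are, among members with a window, the promoter of the member of each complex whose signal had the highest median correlation with the other members (0.497 for Ndufs3, 0.134 for Sdhb, 0.452 for Uqcrc1, 0.382 for Cox6a1 and 0.451 for Atp5o), and that of Cycs (0.257), to show 1 gene of each complex and the carrier. They lie at chr2:90904672-90904971 for Ndufs3, on the minus strand, chr4:140961021-140961320 for Sdhb, on the plus strand, chr9:108936398-108936697 for Uqcrc1, on the plus strand, chr6:50566520-50566819 for Cycs, chr5:115348909-115349208 for Cox6a1 and chr16:91931581-91931880 for Atp5o, the last 3 on the minus strand. Each is written 5′ to 3′ on the strand of its gene, and capitals mark matches to the motifs GCGCANGCG of the factor NRF1 and CCGGAAG of the factor GABPA (also called NRF2), on either strand.
Ndufs3: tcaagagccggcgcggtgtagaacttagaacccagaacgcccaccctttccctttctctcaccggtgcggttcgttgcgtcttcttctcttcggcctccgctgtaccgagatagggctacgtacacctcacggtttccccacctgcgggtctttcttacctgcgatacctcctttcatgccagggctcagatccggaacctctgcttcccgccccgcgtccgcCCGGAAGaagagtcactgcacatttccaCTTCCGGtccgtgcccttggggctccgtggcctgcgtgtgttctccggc
Sdhb: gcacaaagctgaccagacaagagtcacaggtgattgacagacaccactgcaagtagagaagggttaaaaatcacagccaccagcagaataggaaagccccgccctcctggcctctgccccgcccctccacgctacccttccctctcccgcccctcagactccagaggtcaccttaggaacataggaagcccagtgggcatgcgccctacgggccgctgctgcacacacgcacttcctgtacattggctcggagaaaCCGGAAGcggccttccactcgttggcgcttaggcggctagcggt
Uqcrc1: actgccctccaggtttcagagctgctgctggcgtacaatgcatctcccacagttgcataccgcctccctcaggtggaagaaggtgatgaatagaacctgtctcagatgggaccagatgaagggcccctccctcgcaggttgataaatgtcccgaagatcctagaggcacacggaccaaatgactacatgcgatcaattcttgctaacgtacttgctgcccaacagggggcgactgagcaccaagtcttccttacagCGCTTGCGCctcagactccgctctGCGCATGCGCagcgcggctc
Cycs: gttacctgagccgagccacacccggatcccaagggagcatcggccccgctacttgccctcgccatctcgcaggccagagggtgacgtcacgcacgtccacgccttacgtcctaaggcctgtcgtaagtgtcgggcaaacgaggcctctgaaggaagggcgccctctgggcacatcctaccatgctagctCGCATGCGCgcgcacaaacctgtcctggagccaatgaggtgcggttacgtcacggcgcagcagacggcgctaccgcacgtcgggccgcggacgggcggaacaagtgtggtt
Cox6a1: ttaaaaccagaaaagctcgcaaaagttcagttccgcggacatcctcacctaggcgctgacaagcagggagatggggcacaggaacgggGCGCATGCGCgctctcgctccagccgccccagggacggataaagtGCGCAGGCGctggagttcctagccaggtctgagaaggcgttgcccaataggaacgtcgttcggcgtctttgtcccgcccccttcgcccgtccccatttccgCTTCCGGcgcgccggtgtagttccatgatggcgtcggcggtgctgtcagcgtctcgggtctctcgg
Atp5o: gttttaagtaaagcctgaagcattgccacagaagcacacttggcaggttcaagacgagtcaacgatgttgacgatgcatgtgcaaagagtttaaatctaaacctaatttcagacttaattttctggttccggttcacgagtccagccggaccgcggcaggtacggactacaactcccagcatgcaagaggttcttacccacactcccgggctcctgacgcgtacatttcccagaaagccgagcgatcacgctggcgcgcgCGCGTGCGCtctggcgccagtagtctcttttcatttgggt

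Both factors are known as activators of nuclear genes for the respiratory chain. The NRF1 motif was present in 15 of the 58 member promoters (25.9%), against 12.1% of the 6572 promoters of named genes on the array and 6.47% of all 27025 in the table. The GABPA motif was also present in 15 (25.9%), against 15.7% and 9.12%. In all, 25 member promoters held at least 1 of these motifs and 5 held both, and 25 held none of the 5 motifs searched. Shares of other promoters are not given for these combined counts, so they allow no comparison. On the strand of the gene alone, the shares were 15.5% of members and 7.38% of named genes for NRF1, and 8.62% and 8.86% for GABPA, so the higher GABPA share among members was not present on that strand. The other motifs were AAGATGG of YY1, in 12.1% of members and 6.89% of named genes, CAAGGTCA of the estrogen-related receptor alpha, in 3.45% and 1.14%, and the TATA motif TATAAA, in 8.62% and 10.4%. On the strand of the gene alone, their shares were 10.3% and 4.23% for YY1, 0% and 0.639% for the receptor, and 1.72% and 7.24% for TATA. Of 52 matched places in member promoters, 0 overlapped a match to another motif. Median GC content was 59% for members and 60% for named genes. In the promoters shown, Ndufs3 held GABPA matches that begin 27 bases before and at base 2 after the start, and Uqcrc1 held NRF1 matches that begin at bases 7 and 31 after it. Cox6a1 held NRF1 matches from 162 and 117 bases before the start and a GABPA match from 16 bases before it. Sdhb, Cycs and Atp5o held 1 match each. A match of letters does not show that a factor bound there.

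Signals of the members were high for this array. Their median signal was 3044, against 243 for all named genes, 45 of 71 lay in the top 10% and 61 above the median of named genes. A signal depends on its probes as well as on the transcript, so signals of different genes do not rank transcript amounts. The 61 members with a mean of at least 200.1, or 0.4 of the array's trimmed mean, were tested for spread, and 10 were not: Ndufa1, Ndufs4, Ndufc2, Ndufa12, Cox6b2, Cox5a, Cox8a, Cox7a1, Atp5g1 and Atp5j2. Of these, 6 fell below 50.04, the floor set at 0.1 of the trimmed mean, on some arrays, and 0 members did so on all 7. The probe set used had the plain suffix _at for 54 members and a suffix that marks probes shared with related sequences or relaxed design rules for 17.

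**Figure D1:**
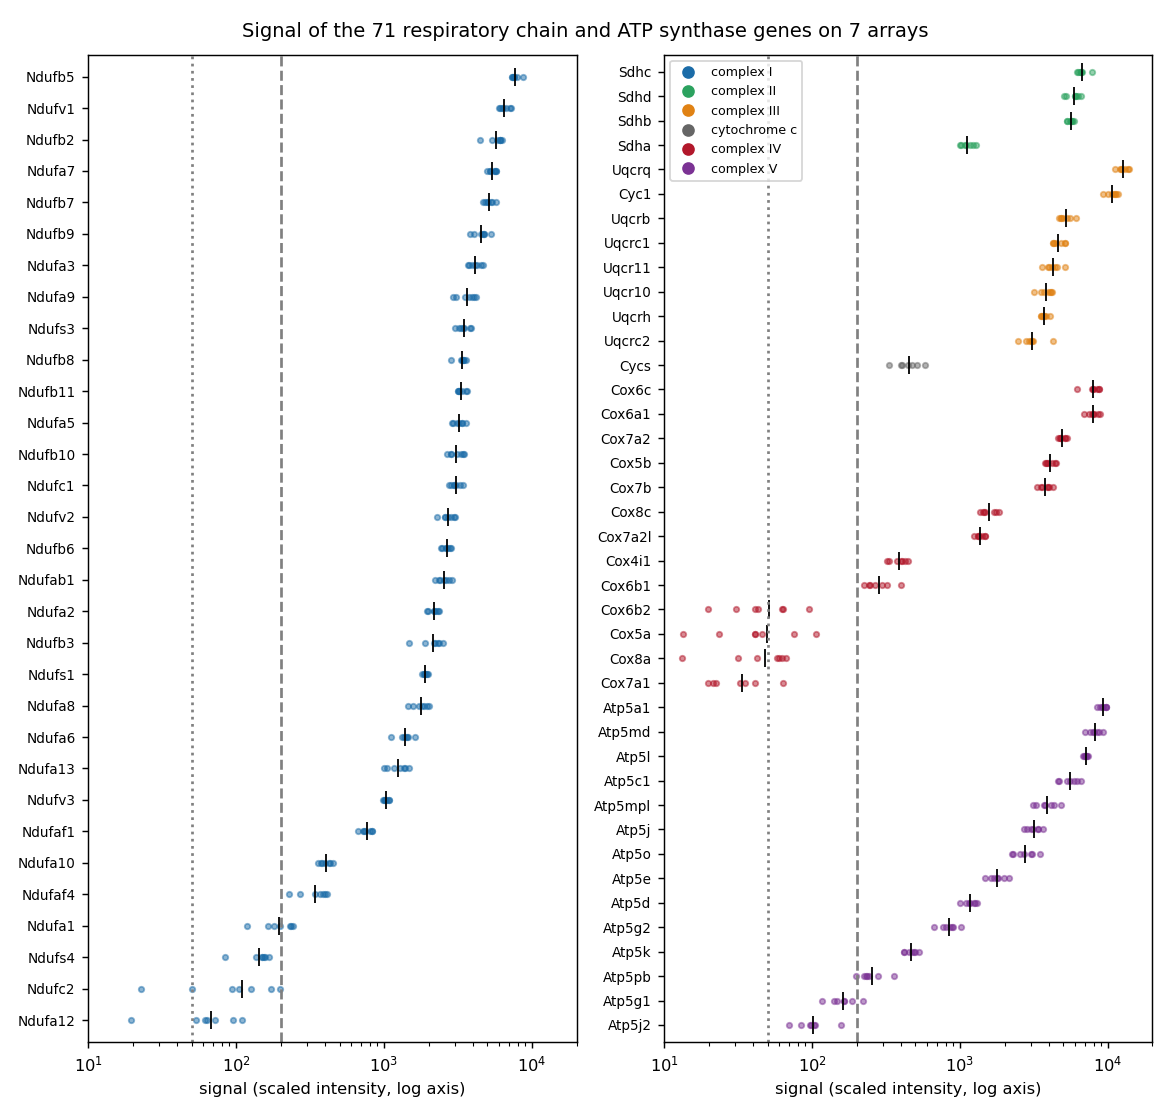
Signal of each of the 71 members (scaled intensity, log axis) on the 7 arrays, by complex: points are arrays, black ticks are means, the dotted line is the floor of 50.04 and the dashed line the filter at 200.1. The arrays of most members lie close together, and the means of 10 members lie left of the filter.

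Complex I holds a hydrophilic arm that oxidises NADH and a membrane arm that pumps protons. Signals below follow the order of replicates 1, 2, 3, 4, 6, 7 and 8. Ndufb5 (NCBI gene 66046), a subunit of the membrane arm and the brightest member of complex I, had 7539.7, 7359.9, 7580.3, 8726, 7470.0, 7318 and 7884. Ndufv1 (NCBI gene 17995), the core subunit that binds NADH, had 6318, 5997, 6706, 6089.9, 7159, 7073 and 6261. Ndufb2, another membrane arm subunit, had 5776, 4456, 6105, 6247, 6074, 6049 and 5354. Ndufb5 stood apart only on replicate 4, and Ndufb2 was low only on replicate 2, while Ndufv1 was highest on replicates 6 and 7. The log2 SD of Ndufb5 was 0.09, and 0.04 without replicate 4, and that of Ndufb2 was 0.17, and 0.08 without replicate 2. With all 4 probe sets of Ndufb2 averaged it was 0.05; 2 of the 4 lie at the floor on every array, and the r between the other 2 was -0.03. The steadiest member of the complex was Ndufs1 (NCBI gene 227197), the largest iron-sulfur subunit, with 1851, 1969, 1947, 1862, 1813, 1893 and 1906, a 1.09-fold range. Ndufb3, a small membrane arm subunit (NCBI gene 66495), had 2184, 2206, 2336, 2315, 1464, 1905 and 2499. It was low on replicate 6, and its log2 SD of 0.26 was 0.13 without that array. The assembly factor Ndufaf4 had 269, 367, 344, 396, 388, 228 and 411, with the lowest values on replicates 7 and 1 and the largest log2 SD of all tested members, 0.32.

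Other core subunits of complex I lay close together over the arrays. Ndufs3 had a signal of 3446 ± 309 and Ndufv2, an iron-sulfur subunit of the NADH-oxidising part, 2714 ± 254. Tested accessory subunits of the NDUFA class ranged from Ndufa7 at 5397 ± 277 down to Ndufa10 at 402 ± 35.9. Between them were Ndufa3 at 4130.1 ± 373, Ndufa9 at 3635 ± 484, Ndufa5 at 3211 ± 254, Ndufa2 at 2169.7 ± 153, Ndufa8 at 1769 ± 206, Ndufa6 at 1383 ± 154 and Ndufa13 at 1249 ± 179. The NDUFB class, of the membrane arm, included Ndufb7 at 5118 ± 360.4, Ndufb9 at 4534 ± 481, Ndufb8 at 3346 ± 238, Ndufb11 at 3333 ± 204, Ndufb10 at 3085 ± 313 and Ndufb6 at 2643 ± 156. Ndufc1 had 3044 ± 235, Ndufab1, which is also the mitochondrial acyl carrier protein, 2532 ± 230.0, Ndufv3 1033 ± 39.6 and the assembly factor Ndufaf1 761 ± 58.7. Of these, Ndufa13 and Ndufa9 spread most, with log2 SDs of 0.21 and 0.20, and Ndufa9 was lowest on replicates 2 and 1 and had a log2 SD of 0.10 without those arrays. The 4 members below the filter were Ndufa1 at 196 ± 44.8, Ndufs4 at 142 ± 27.5, Ndufc2 at 109 ± 62.2 and Ndufa12 at 67.8 ± 29.0. Their low signals are those of the probe sets and do not show that these subunits are scarce.

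Complex II is succinate dehydrogenase, an enzyme of the citric acid cycle as well as of the chain, and all 4 of its genes are nuclear. Sdha (NCBI gene 66945), which carries the flavin and oxidises succinate, had 1101, 1278, 1223, 1000.0, 1076, 1024 and 1162. Sdhb (NCBI gene 67680), the iron-sulfur subunit, had 5547, 5676, 5733, 5649, 5921, 5277 and 5312. Their arrays lay within 1.28-fold and 1.12-fold of one another. Of the membrane anchors, Sdhc (NCBI gene 66052) had 7785, 6273, 6622, 6616, 6639.7, 6189.9 and 6514, and was high only on replicate 1. Sdhd (NCBI gene 66925) had 6555, 6292, 5239, 5051, 5974, 5986 and 6121, and was lower on replicates 3 and 4 than on the other 5. The log2 SD of Sdhc was 0.11, and 0.04 without replicate 1.

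Complex III passes electrons from ubiquinol to cytochrome c, and all 8 of its members were in the top 10% of named genes by signal. Uqcrq (NCBI gene 22272), a small subunit near the cytochrome b core, had 13853, 12958, 12069, 13638, 12283, 12416 and 11138. Cyc1 (NCBI gene 66445), the cytochrome c1 that hands on the electron, had 11279, 11054, 11123, 11610.5, 10702, 9295 and 10030.1. Uqcrb (NCBI gene 67530), a subunit that contacts cytochrome b, had 6131, 4995, 5249, 5559, 4659.9, 4791 and 4852. All 3 were high on replicates 1 and 4, and Cyc1 was lowest on replicates 7 and 8. Uqcrc2 (NCBI gene 67003), a core subunit, had 3007, 3106, 3058, 4262, 2915, 2452 and 2799.9. Its replicate 4 lay above the other 6, and its log2 SD was 0.24, and 0.13 without that array. Uqcr11 had 5120.1, 4527, 3561, 3964, 4215, 3980.0 and 4383, highest on replicate 1, and Uqcrh, the hinge protein beside cytochrome c1, had 4030.3, 3691, 3558, 3538, 3788, 3677 and 3517, the narrowest spread of the complex. Uqcrc1, the other core subunit, had 4616 ± 379 and Uqcr10 had 3813 ± 385. The log2 SD of Uqcrh was 0.07, and 0.04 without replicate 1.

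Cytochrome c (Cycs, NCBI gene 13063), the soluble carrier between complexes III and IV, had 443, 578, 406, 513, 397, 330.5 and 477. It was highest on replicate 2 and lowest on replicate 7, a 1.75-fold range.

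Complex IV is cytochrome c oxidase, whose nuclear subunits surround a catalytic core encoded in mitochondrial DNA. Cox6c (NCBI gene 12864) had 7929, 8755, 8471, 8650.1, 7878, 6207 and 7849. Cox6a1 (NCBI gene 12861), the form of subunit 6a found in liver, had 8849, 8001, 8509, 7938, 7479, 6897 and 7800.1. Cox7a2 (NCBI gene 12866), the form of subunit 7a found in liver, had 5295, 4812, 4580.1, 5095, 5089, 4725 and 4717. Cox6c and Cox6a1 were lowest on replicate 7 and Cox7a2 on replicate 3. The log2 SD of Cox6c was 0.17, and 0.07 without replicate 7. Cox6b1 had 243, 297, 267, 322, 399, 246 and 224, with its highest value on replicate 6. Cox7a2l, which helps join complexes III and IV into supercomplexes, had 1475, 1332, 1318, 1348, 1468, 1242 and 1401. Cox4i1, the broadly expressed form of subunit 4, had 397, 376, 422, 407, 444, 331 and 319, on a probe set that can read related sequences. Neither stood apart on a single array. Cox5b had 4071 ± 289, Cox7b 3782 ± 337 and Cox8c, known as a testis form, 1567 ± 182. A second probe set of Cox8c had a mean of 7.87 and lay below the floor on all 7 arrays. Below the filter were Cox6b2, another testis form, at 50.9 ± 25.3, Cox5a at 49.4 ± 31.6, Cox8a at 47.8 ± 19.7 and Cox7a1 at 33.7 ± 15.5. Cox5a and Cox8a encode subunits of the liver enzyme, so a signal near the floor here does not show that a transcript is absent.

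Complex V consists of the soluble F1 part that makes ATP and the membrane Fo part with its ring of c subunits. Atp5a1 (NCBI gene 11946), the alpha subunit of F1, had 8891, 9647, 9735, 9302, 9129, 8374 and 9694. Atp5md (NCBI gene 66477), a small subunit that helps ATP synthase form dimers, had 9270.5, 7039, 7548, 8669, 8491, 8014 and 7884. Atp5l (NCBI gene 27425), subunit g of Fo, had 7155, 7065, 6815, 7044, 7259, 7338 and 6867, within 1.08-fold of one another. These 3 were the brightest of the complex, and Atp5l had the smallest log2 SD of all tested members, 0.04. With all probe sets of a gene averaged, the log2 SD of Atp5l was 0.19, since a dim probe set at 141 then counts equally. With quantile normalization it was 0.07. The members that spread most beyond their level were Atp5o (NCBI gene 28080), the stalk subunit that joins F1 to Fo, with 3473, 3079.8, 2551, 3018, 2249, 2280.2 and 2713, and Atp5mpl, a small Fo protein, with 4849, 3776, 4117, 4312, 3129.5, 3253 and 3719. Both were highest on replicate 1 and lowest on replicate 6.

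Of the other F1 genes, Atp5c1, the rotating gamma subunit, had 5536 ± 729.8, Atp5d, the delta subunit, 1178 ± 103 and Atp5e, the epsilon subunit, 1791 ± 227. In the Fo part and the stalk, Atp5j had 3146 ± 324, Atp5k 468 ± 42.2 and Atp5pb, the b subunit, 253 ± 52.5. The log2 SD of Atp5pb was 0.27, and 0.16 without replicate 4. Subunit c is made from several genes that encode the same mature protein. Atp5g2 had 799, 663, 850.3, 892, 1009, 877 and 767, and Atp5g1, below the filter, had 141, 116, 185, 164, 222, 148 and 164. Both were lowest on replicate 2 and highest on replicate 6. The f subunit gene Atp5j2 had 102 ± 27.1.

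Members varied little between arrays. The highest array lay less than 2-fold above the lowest for 61 of 61 tested members, against 89.2% of the 4481 genes tested, and less than 1.5-fold above it for 52, against 59.6% of genes tested. The median range was 1.29-fold, against 1.44-fold for all genes tested. On the log2 scale, members had a median SD of 0.13 and all genes tested one of 0.18. Bright genes vary less on these arrays, so each SD was also set against the SD that limma's prior gives at the gene's level. It was below that value for 40 of 61 members (65.6%), against 50.9% of genes tested. By complex, this held for 19 of 27 members of complex I, 4 of 4 of complex II, 5 of 8 of complex III, 6 of 9 of complex IV and 6 of 12 of complex V, but not for Cycs. The median ratio of the SD to the expected SD ran from 0.770 in complex I and 0.795 in complex II to 0.877 in complex IV, 0.924 in complex III and 1.03 in complex V.

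**Figure D2:**
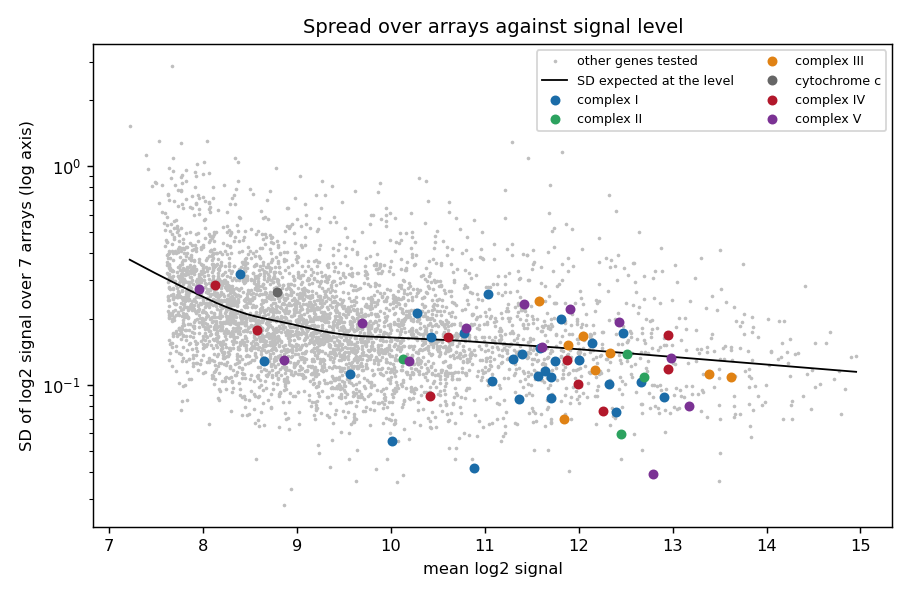
SD of log2 signal over the 7 arrays (log axis) against mean log2 signal: grey points are the other genes tested, coloured points the 61 tested members by complex, and the line is the SD expected at each level. Of the members, 40 of 61 lie below the line, with Atp5l and Ndufs1 farthest below it.

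The limma-based test asked whether a gene spread more between arrays than genes of its level. Of 61 members, 0 had an unadjusted p under 0.05, against 301 of 4481 genes tested (6.72%), and 0 had an adjusted p under 0.05, against 0.0% of genes tested. The smallest adjusted p of limma's test among members was 0.948, for Ndufb3 (0.126 unadjusted), and the next smallest unadjusted values were 0.142 for Uqcrc2 and 0.167 for Atp5o. In simulated data with the same number of genes, the SD of 200 was raised at once, by 2-, 5-, 10- or 20-fold. At an adjusted p under 0.05, the test found 0 of 50 genes raised 2-fold, 13 of 50 raised 5-fold and 37 of 50 raised 10-fold. At an unadjusted p under 0.05 it found 17 of 50 raised 2-fold and 46 of 50 raised 5-fold. At the adjusted threshold, 2-fold excess spread was therefore not detectable in a single member. That threshold eases as more genes are raised, so with fewer raised genes the adjusted counts could be lower.

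What variation there was ran partly in common. The deviation of each member from its own mean, on the log2 scale, had a median over the 61 members of 0.09, 0.03, -0.01, 0.10, -0.03, -0.09 and -0.04 on the 7 arrays in order, while that of all genes tested stayed between -0.01 and 0.02. Members were thus slightly high on replicates 1 and 4 and slightly low on replicate 7. On replicate 4, 46 of 61 lay above their own mean, against 51.8% of genes tested, on replicate 1, 45, against 47.8%, and on replicate 7, 12, against 51.9%. Replicate 7 was the lowest array for 20 of 61 members, against 13.6% of genes tested, and the highest for 1, against 14.6%. Replicate 1 was the lowest for 0 members, against 16.6%, and the highest for 22, against 14.4%. Replicate 4 was the highest for 15, against 14.3%.

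The pattern differed somewhat by complex. Complex IV had the widest range of medians, 0.32, from 0.12 on replicate 4 to -0.20 on replicate 7. There, all 9 tested members lay below their own mean, while 51.9% of genes tested lay above theirs. Replicate 7 was the lowest array for 5 of 9, against 13.6% of genes tested. Without replicate 7 the range of medians in complex IV was 0.170, below the 0.254 of complex III. It was also not the widest with each array centred on its median (0.299, against 0.322 in complex V), with plain _at probe sets alone (0.260, against 0.323 in complex II) or with all probe sets averaged (0.219, against 0.233 in complex III). Complex III ran from 0.13 on replicate 1 to -0.10 on replicate 8, and all 8 members lay below their mean on replicate 7 as well. Complex V ran from 0.14 on replicate 1 to -0.06 on replicate 6, complex I from 0.10 on replicate 4 to -0.07 on replicate 7, and complex II from 0.08 on replicate 1 to -0.09 on replicate 7. Each of these medians is a shift of under 0.3 on the log2 scale. They rest on 27, 4, 8, 9 and 12 tested members of complexes I to V, and a median over fewer genes varies more. With each array centred on its median, the members' median was 0.16 on replicate 1 and lowest on replicate 6, at -0.08, with -0.07 on replicate 7. The median of all genes tested then lay between -0.03 and 0.06, with the 0.06 on replicate 1.

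**Figure D3:**
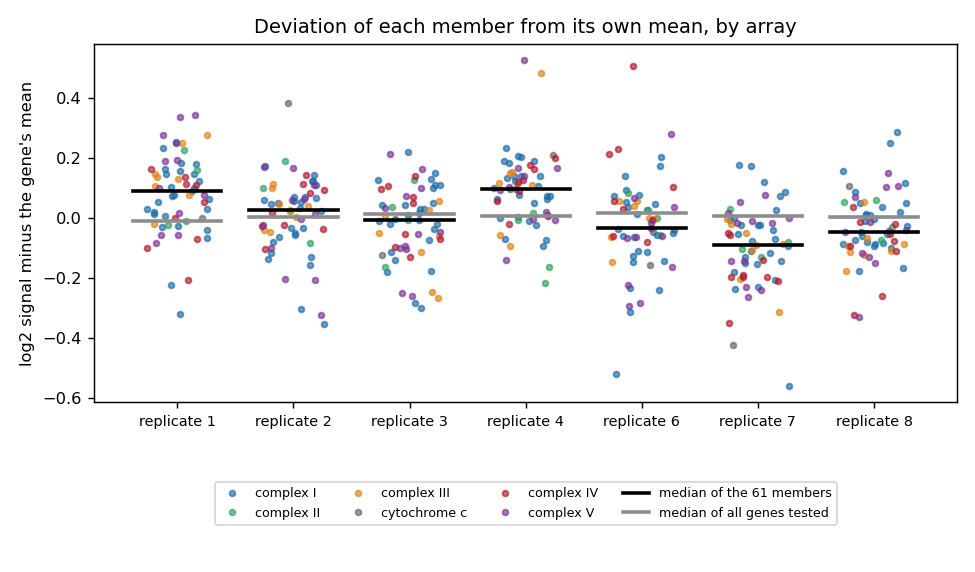
Log2 signal minus the gene's own mean for the 61 tested members on each replicate, coloured by complex, with the median of the members in black and that of all genes tested in grey. The black line lies above the grey line on replicates 1 and 4 and farthest below it on replicate 7.

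Correlations over the 7 arrays describe the same pattern pair by pair. Points share an array, its scaling and its RNA, so no test was made. The median Pearson r over the 1830 pairs of tested members was 0.226, with 69.0% of pairs above 0, against 0.00 and 50.03% for all pairs of genes tested. Within complexes the median r was highest in complex III, at 0.530, and complex IV, at 0.428, followed by complex V at 0.205, complex II at 0.168 and complex I at 0.147. Between complexes III and IV it was 0.377, and between complexes I and II 0.046. The most alike pairs lay across complexes: Ndufb8 and Cox6c, with r = 0.972, Ndufc1 and Uqcrb, with r = 0.963, and Ndufb7 and Atp5md, with r = 0.959. Ndufb8 and Cox6c shared their low value on replicate 7, where Ndufb8 had 2846 and 3314 to 3593 elsewhere. The least alike pair was Ndufa9 and Ndufv3 of complex I, with r = -0.927, and Ndufv1 had a median r of -0.38 with the other members.

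Whether these small differences recur on a second probe set of the same gene could be asked for a few members. In 6 members with at least 2 probe sets above the filter, 11 pairs of probe sets could be compared. Their median r was -0.111, from -0.444 for a pair of Atp5d to 0.763 for Cox6c. Most of the pairs were of Atp5d probe sets, so the pairs were not independent, and the median is the r of an Atp5d pair. Besides Cox6c, the other members had r of 0.319 for Atp5c1, -0.276 for Cyc1, -0.029 for Ndufb2 and -0.177 for Ndufv2. A two-sided exact permutation test over every pairing gave 0 of 11 pairs with an unadjusted p under 0.05. For Cox6c the exact permutation p was 0.051 (0.557 adjusted over the pairs), Spearman's rho was 0.75 (exact permutation p = 0.066), and leaving out the 2 arrays most distant from the median gave r = 0.275. Probe sets of a gene also differed in level. Of 20 members with over 1 probe set, 12 had one with a mean below the floor, as for Ndufb2, whose probe sets had means of 5723, 5526, 3.94 and 3.61.

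The arrays fell into sets by their bacterial spike-in controls, which averaged between 10.64 and 10.97 (log2) on replicates 1, 2, 3 and 4 and between 10.20 and 10.24 on replicates 6, 7 and 8. Of 61 members, 51 had a higher mean on the first set, against 47.3% of genes tested, with a median difference of 0.08 on the log2 scale, against -0.01. The sets did not overlap for 10 of 61 members, against 7.34% of genes tested. These were Ndufb9, Ndufs3, Ndufb8, Ndufb6, Cyc1, Uqcrb, Uqcrc2, Cox6c, Cox6a1 and Atp5mpl, all higher on the first set. With the set as a term in the fit, the members' median log2 SD was 0.12, against 0.18 for all genes tested, and 0 members had an unadjusted limma p under 0.05. The ratio of 3′ to 5′ signal of a control is a sign of RNA quality. For Gapdh it was 0.907, 0.866, 0.804, 0.899, 0.875, 0.788 and 0.834 on the 7 arrays. It was highest on replicates 1 and 4 and lowest on replicate 7, as the members' medians were. The other arrays did not keep that order. Replicate 6 had a higher ratio than replicate 2, with member medians of -0.03 and 0.03. Replicate 3 had a lower ratio than replicate 8, with member medians of -0.01 and -0.04. The ratio of beta-actin was 1.34, 1.31, 1.56, 1.74, 1.69, 1.78 and 1.69, lowest on replicates 2 and 1. Of the hepatocyte markers, 9 of 10 also had a higher mean on the first set, with a median difference of 0.14 and no overlap for 5, and of the tested muscle markers 8 of 9, with a median of 0.93. Of the tested Kupffer cell and macrophage markers, 1 of 8 was higher there, with a median of -0.24 and no overlap for 3. The part of the spike-in set, of RNA quality and of these cell types in the members' pattern was not tested.

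Markers of other cells also differed between arrays. The Kupffer cell and macrophage list had 10 of 11 genes on the array and 8 tested, and its summed signal ranged from 7176 on replicate 3 to 9606 on replicate 7. On replicate 7 its median deviation was 0.26 and 6 of 8 tested genes had their highest value, against 14.6% of genes tested. The brightest were Clec4f at 1572 ± 198, C1qa at 1484 ± 194 and C1qc at 1419 ± 203, and those of largest log2 SD were Lyz2 at 426 ± 141 and Csf1r at 867 ± 199.9. Lyz2 and Csf1r were highest on replicate 7, at 679 and 1168. Below the filter were Adgre1 at 156 ± 44.1 and Marco at 18.7 ± 21.9, the latter above the floor only on replicate 7. The median r between members and the tested genes of this list was -0.303. On replicate 1 all 10 genes of the hepatocyte list lay above their own mean, against 47.8% of genes tested. The hepatocyte list had a median deviation of 0.09 on replicate 1, -0.03 on replicate 4 and -0.02 on replicate 7. Its highest median was 0.19, on replicate 3, and its lowest -0.13, on replicate 8. The part of cell makeup in the members' pattern was not tested.

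Several subunits of complex IV exist in a form of heart and skeletal muscle, and these forms served as a check on the origin of the RNA. Cox6a2 (not a member), the muscle form of subunit 6a, had 417, 337, 51.5, 34.2, 50.2, 40.7 and 47.6. It was high on replicates 1 and 2 and near or below the floor on the other 5. Cox8b (not a member), the muscle form of subunit 8, had 258, 185, 238, 192, 245, 289 and 235, without such a step. Cox7a1, the muscle form of subunit 7a, had 35.3, 63.6, 41.2, 22.3, 19.7, 32.7 and 21.3, below the floor on 6 of 7 arrays. Among skeletal muscle markers, actin Acta1 had 5991, 2034, 100.4, 93.3, 10.5, 15.7 and 42.9, and Myl1, a light chain of myosin, had 848, 542, 99.9975, 132, 123, 114 and 87.0. Slc25a4, the ATP/ADP carrier known from heart and muscle, had 630.2, 425, 182, 208, 174, 132 and 202. These too were highest on replicates 1 and 2.

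The muscle list had 19 of 19 genes on the array and 9 tested. Its summed signal was 15214 on replicate 1, 8602 on replicate 2 and 3234 to 3592 on the other 5. Its brightest tested genes were Pvalb at 1363 ± 193, Acta1 and Eno3 at 424 ± 283. Atp2a1 had 391 ± 408, Casq1 359.7 ± 93.7, Mylpf 255 ± 61.6 and Tnnc2 214 ± 182. Those below the filter were Myh1 at 189 ± 348, Ckm at 173 ± 23.7, Myh4 at 166 ± 38.1, Tnnt3 at 136 ± 205, Mb at 135 ± 224, Actn3 at 120.3 ± 43.0, Ckmt2 at 47.4 ± 65.4, Tnni2 at 34.6 ± 58.5 and Myh2 at 10.8 ± 3.1, the last below the floor on every array. Ckm, Myh4 and Actn3 had their lowest values on replicate 1, at 144, 103 and 56.1. On replicate 1, the median deviation was 1.48 over the tested muscle genes and 0.09 over the members. On replicate 2 the values were 0.48 and 0.03, and on replicate 4 they were -0.30 and 0.10. Of the 9 tested muscle genes, 5 had an unadjusted limma p under 0.05, against 6.72% of genes tested, and 0 had an adjusted p under 0.05. The median r between members and these genes was 0.251, with 70.5% of pairs above 0, the highest among the lists compared. Without replicates 1 and 2 together, the members' median log2 SD was 0.12 and 0 members had an unadjusted limma p under 0.05. The part of muscle RNA in the members' high values on replicate 1 was not tested.

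**Figure D4:**
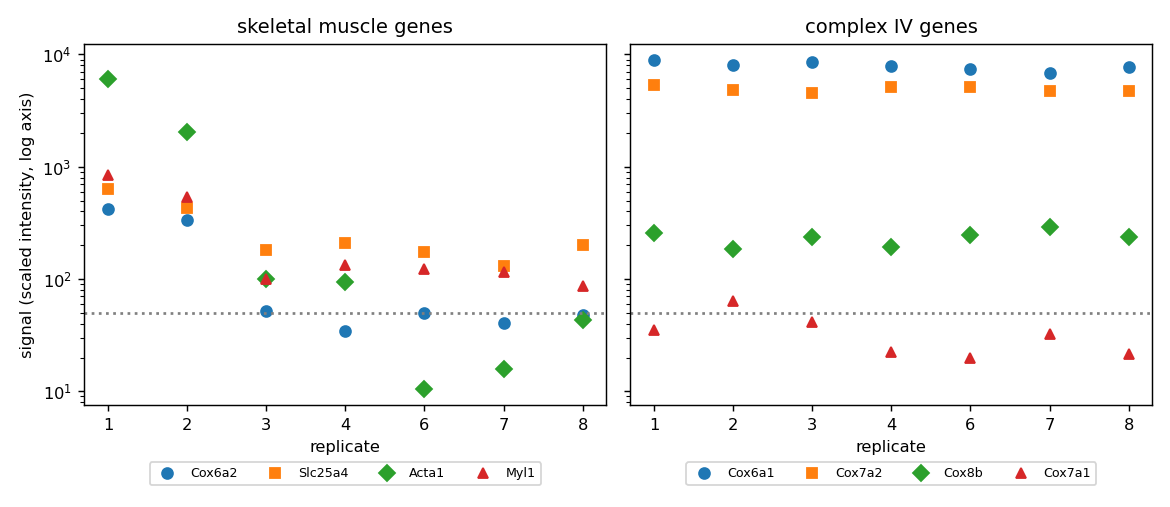
Signal (scaled intensity, log axis) of skeletal muscle genes on the left and of complex IV genes on the right on each replicate, with the floor of 50.04 dotted. Cox6a2, Slc25a4, Acta1 and Myl1 are highest on replicates 1 and 2, while Cox6a1, Cox7a2 and Cox8b show no such step and Cox7a1 lies near or below the floor.

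Pathways around the chain were read from lists. The citric acid cycle and pyruvate dehydrogenase, which supply NADH and succinate, had 16 genes on the array and 15 tested. Of the 15, 0 had an unadjusted limma p under 0.05, against 6.72% of genes tested. An SD below that expected was found for 12, against 50.9% of genes tested. The brightest were Suclg2 at 4756 ± 812, Suclg1 at 3881 ± 187 and malate dehydrogenase Mdh2 at 3249.8 ± 194, and those of largest log2 SD were Idh3a at 549 ± 92.0 and Suclg2. Their median deviation was 0.07 on replicate 1, 0.05 on replicate 4 and -0.04 on replicate 7, and their median r with members was 0.141.

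Genes of electron entry and of inner membrane carriers had 20 on the array and 17 tested. The brightest were Etfb at 4463 ± 353 and Etfa at 3788 ± 363, which carry electrons from fatty acid oxidation, and Aifm1 at 2605 ± 289. In this list 1 of 17 had an unadjusted limma p under 0.05, against 6.72% of genes tested. It was Slc25a4, with an unadjusted limma p of 0.0098 and an adjusted p of 0.457. Next in log2 SD was Gpd2, the mitochondrial glycerol phosphate dehydrogenase, at 532 ± 129.6. The median r of this list with members was 0.007.

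Assembly factors of the chain had 15 on the array and 13 tested. Higd2a at 2911 ± 184, Cox18 at 1781 ± 187 and the copper chaperone Cox17 at 1669.8 ± 102 were the brightest. Tmem70, needed to assemble ATP synthase, had 498, 645, 458, 664, 699, 942 and 913, highest on replicates 7 and 8. It was the 1 of 13 with an unadjusted limma p under 0.05, against 6.72% of genes tested. Its unadjusted limma p was 0.037 and its adjusted p 0.636. Higd1a, second in log2 SD, had 318 ± 58.2.

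Regulators of mitochondrial biogenesis had 17 on the array and 11 tested. Ppara, the nuclear receptor that activates genes of fatty acid oxidation, had 1420.2, 1776, 3336, 2909, 1073, 1676 and 1948. It was highest on replicates 3 and 4 and lowest on replicate 6. Ppara was the 1 of 11 with an unadjusted limma p under 0.05, against 6.72% of genes tested. Its unadjusted limma p was 0.004 and its adjusted p 0.354. The other bright genes were Esrra, the estrogen-related receptor alpha, at 885 ± 61.7 and the deacetylase Sirt3 at 829 ± 160.1, and Nrip1, a corepressor, was second in log2 SD at 298 ± 107. Gabpa, the factor of the CCGGAAG motif, had 534 ± 85.3 and Yy1 had 682 ± 71.8.

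Mitochondrial ribosomal proteins, which translate the subunits encoded in mitochondrial DNA, had 61 on the array and 54 tested. The brightest were Mrpl52 at 3105 ± 161, Mrpl18 at 2279.9 ± 247 and Mrpl51 at 1977 ± 205, and those of largest log2 SD were Mrps22 at 269.8 ± 59.4 and Mrps10 at 418 ± 86.9. Of the 54, 0 had an unadjusted limma p under 0.05, against 6.72% of genes tested, and 36 had an SD below that expected, against 50.9%. Their median r with members was 0.035.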

How the data were processed

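Liver RNA was measured on 7 Affymetrix U74Av2 arrays, 1 per sample. The authors deposited linear intensities, with 1 value for each probe set and array. Their software is not given in the sources used here. Scaling preceded the deposit, since the mean after trimming 2% at each end was 500.4 on every array. Detection calls were not used, so a value near the floor may be background, and precision is limited by the number of arrays. The table held 12488 probe sets, 66 of them controls. Platform annotation named 1 gene for 10833 of the others and several for 396, which were left out with the unnamed ones.

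Each array was brought to 1 common trimmed mean. A floor at 0.1 of that mean (50.04) was then applied, followed by log2. Each gene was represented by its probe set of highest mean, which gave 8251 genes. The test took the 4481 genes whose mean reached 0.4 of the trimmed mean (200.1). Signals in the text are scaled values before the floor, as mean ± SD over 7 arrays, and fold ranges are taken after the floor. With limma 3.58.1 under R 4.3.3, a model of the mean alone was fitted. Each gene's variance was compared by F test (upper tail) with a robust, level-dependent prior of 5.61 degrees of freedom, and p-values were adjusted over all genes tested by Benjamini-Hochberg at 0.05. The step was tested on simulated data. Other steps ran in Python 3.11.15 with pandas 2.3.3, scipy 1.17.1, numpy 2.4.6 and matplotlib 3.10.9.

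The members, the gene lists and the alternatives were chosen with earlier results of these data known. Values on every array are given, in each complex, for the 3 members of highest mean, the 2 of largest and the 1 of smallest log2 SD relative to that expected, for genes with forms in other tissues, and for Cycs. Other genes of a list are the 3 of highest mean and the 2 of largest log2 SD among those tested, and all muscle markers. Gabpa, Yy1 and the low replicate 7 of Ndufb8, Lyz2 and Csf1r were added after their values were seen, as were the every-array values of Tmem70, Ppara and Slc25a4. Array sets were split at the widest gap (0.40 on the log2 scale) in mean spike-in signal. Promoter windows came from RefSeq, the first listed for genes with several. Alternatives were other scalings, floors, filters and probe set rules, each array left out, replicates 1 and 2 left out together, the array set as a term, and a prior fitted without its robust step or without its trend.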

Additional observations from a re-analysis of the deposited data

Results flagged for a closer look

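In 5 of the 61 tested members (8.20%), 1 array stood apart from the other 6 by Dixon's test for an outlying value, against 6.29% of the 4481 genes tested. Chance flags about 1 in 20 groups, and no explanation was tested. Ndufb5, of complex I, reached 8726 on replicate 4, against 7318 to 7884 elsewhere. Uqcrc2, of complex III, was also highest on replicate 4, at 4262, against 2452 to 3106 elsewhere. Sdhc, of complex II, reached 7785 on replicate 1, against 6189.9 to 6639.7 elsewhere. On replicate 7, Ndufb8, of complex I, had 2846, with 3314 to 3593 elsewhere, and Cox6c, of complex IV, had 6207, with 7849 to 8755 elsewhere. The probe sets of Ndufb5, Uqcrc2 and Cox6c have a suffix that marks probes able to read related sequences.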

How the results depend on the processing

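Over 22 alternatives, the count of members with excess spread by limma's test stayed at 0 at an adjusted p under 0.05, and also at an unadjusted p under 0.05 except with no filter on dim genes, where it was 4 of 71, against 902 of all 8251 genes. Many dim genes then lie at the floor. The members' median log2 SD ranged from 0.12 to 0.14, and the share of members with an SD below that expected ran from 34 of 71 with no filter on dim genes (40.2% of all genes) to 48 of 61 with the prior without its trend (47.8%). With each array centred on its median, the range over arrays of the median deviation was 0.256 in complex II, against 0.167. In complex V it was 0.322, against 0.206. With that centring 38 members, against 22, were highest on replicate 1. The median of all genes tested also rose on replicate 1, from -0.01 to 0.06. The share of all genes highest there under that centring is not given here. With plain _at probe sets alone, the range over arrays of the median deviation was 0.323 in complex II. Of 47 members then tested, 13 were lowest on replicate 7, against 20 of 61. Leaving out each array in turn gave a range in complex IV from 0.170 (without replicate 7) to 0.330 (without replicate 1), against 0.316. The causes of these changes were not tested. The log2 SD of single members moved by over 1.5 times for 11 of 60 with all probe sets averaged and for 0 to 8 of the members tested under each other alternative. With 7 arrays, only large excess spread could be found in a single gene. No paired analysis was possible because all samples form 1 group.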

Other observations

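Cytosolic ribosomal proteins, a second large group of bright housekeeping genes, had 35 genes on the array and 24 tested. The brightest were Rpl41 at 20719.9 ± 2031, Rps18 at 10599 ± 1076 and Rps28 at 10419 ± 2484, with Rps28 and Rps29 (256.9 ± 52.5) those of largest log2 SD. Of the 24, 2 had an unadjusted limma p under 0.05, Rps28 and Rpl37a, against 6.72% of genes tested, and 0 had an adjusted p under 0.05. An SD below that expected at their level was found for 10, against 50.9% of genes tested. On replicate 1 their median deviation was 0.09, like that of the oxidative phosphorylation genes. There, 18 of 24 lay above their own mean, against 47.8% of genes tested. Replicate 1 was the highest array for 8 of them, against 14.4%, and the lowest for 0, against 16.6%. Their median r with the oxidative phosphorylation genes was 0.074.

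Other cell type lists had summed signals of 2774 to 4416 for endothelial cells, 6718 to 8643 for stellate cells and matrix, 1555 to 1897 for B, T and NK cells, 7774 to 12672 for red cells and 1624 to 2363 for fat. Of the cholangiocyte list, 4 of 6 genes were on the array and 0 passed the filter. Of the listed genes of subunits encoded in mitochondrial DNA, 0 were among the named genes of the array, so these could not be analysed.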
